A study of Mus musculus with 4 samples.

Results

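The 9 genes described here encode proteins of endothelial cell-cell junctions, and they were chosen by name from the 32285 genes counted: Cldn5, Ocln, Tjp1, Cdh5, Esam, F11r, Jam2, Cgnl1 and Pecam1. All 9 were counted in endothelial-like cells of all 4 libraries, and their levels are given by library and by marker-defined endothelial subtype. The data were droplet-based 3′ single-cell RNA sequencing libraries of brain cells from male C57BL/6N mice aged 10 months, and every library was 1 pool of 4 to 5 mice. The 4 groups were sham surgery with an isotype control antibody, and stroke surgery (dMCAO) with the isotype control, with anti-VCAM1 or with anti-VLA4, each antibody being given for 10 weeks. VCAM1 is an adhesion molecule of activated endothelium, and VLA4 is the leukocyte integrin that binds it. The labels name sensory cortex and infarct core for every group, the sham group included, and the dissected tissue held about 2 mm of cortex around the lesion. Cells were stained for CD31 and CD45, but the fractions taken forward are not given in the sources used here. CD31 is the product of Pecam1, and whether the stain had a part in the level of that gene was not tested.

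Brain endothelial cells seal the space between neighbouring cells with tight junctions, and this seal is the physical part of the blood-brain barrier. Claudin-5 strands close the cleft to small molecules, occludin and the junctional adhesion molecules span it, and zonula occludens and cingulin family proteins tie the strands to actin from the inside. VE-cadherin forms the adherens junction, and PECAM1 and ESAM also hold neighbouring membranes together at the cell-cell contact.

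The libraries held 10008987 to 34721356 UMIs and 1514, 2832, 4657 and 6209 kept cells in this order, used throughout: sham with isotype, stroke with isotype, then the stroke libraries treated with anti-VCAM1 and with anti-VLA4. Of these, 528, 618, 2268 and 2957 were endothelial-like, or 34.9%, 21.8%, 48.7% and 47.6%, with median depths of 4009.5, 3865.5, 4146.5 and 4471 unique molecular identifiers (UMIs) per cell. The 6 endothelial-like clusters each showed 8 to 14 of 15 endothelial markers, and haemoglobin genes led 1 of them. Microglia-like cells numbered 485, 1000, 1254 and 1686. The share of all UMIs of Cldn5 that lay in endothelial-like cells was 98.1%, 93.6%, 89.8% and 89.2%. A cluster that stayed unnamed, with 10 of 15 endothelial and 4 of 8 pericyte markers, had 2, 9, 128 and 188 cells. It held 0.048%, 2.20%, 6.62% and 6.92% of the Cldn5 UMIs. Some differences between the libraries ran alongside the groups. A capillary-like subcluster with little Malat1, a nuclear RNA, held 2.27%, 7.28%, 22.0% and 22.5% of endothelial-like cells. Venous-like cells made up 8.14%, 5.83%, 1.37% and 1.66%. Hbb-bs, a haemoglobin gene of red blood cells, took up 90.6, 1095, 80.2 and 991 CPM in endothelial-like cells, CPM being UMIs per 1e+06 UMIs of the summed cells. There were 78 barcodes found in more than 1 library, 59 of them in both isotype libraries, and leaving them out (an alternative chosen after seeing the data) moved no ratio over all endothelial-like cells by more than 0.02. With 1 library per group no test between groups was possible, so all intervals are 95% intervals of counting error only, and each difference is one between libraries.

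Levels are given in CPM, and gene positions are those of GENCODE M21 on build GRCm38. Reads come from transcript ends, so levels were not divided by transcript length. Cldn5 stood highest of the 9 in every library and F11r lowest. Tjp1, which encodes ZO-1, came after Cldn5, followed by Pecam1. Esam and Cdh5 came next, and their counting intervals overlapped in both isotype libraries but not in the 2 antibody-treated stroke libraries. Ocln, Jam2 and Cgnl1 lay between 288 and 384 CPM, and the order of Jam2 and Cgnl1 differed between libraries while Ocln was the lowest of these in each.

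Cldn5, the main claudin of brain endothelium, spans 1.416 kb on chromosome 16 (18776847 to 18778262). It stood at 3271, 2984, 3567 and 3466 CPM. It was thus lowest in stroke with isotype, and the counting intervals of the 4 libraries did not overlap. Its stroke ratio, the log2 ratio of stroke over sham with isotype in both, was -0.13 (-0.18 to -0.09). Its antibody ratios, each against stroke with isotype and always with anti-VCAM1 first, were 0.26 (0.22 to 0.29) and 0.22 (0.18 to 0.25), or 1.20-fold and 1.16-fold. The antibody comparisons share the stroke isotype library as their control, so a low value there raises both. Ocln encodes occludin, the 4-pass tight junction protein, and spans 56.2 kb on chromosome 13 (100496507 to 100552718). It stood at 349.9, 321, 299 and 288 CPM. Its stroke ratio was -0.12 (-0.26 to 0.01), and its antibody ratios were -0.10 (-0.21 to 0.00) and -0.16 (-0.26 to -0.05). Over all endothelial-like cells the 2 main strand proteins thus differed in the sign of their antibody ratios, that of Ocln with anti-VCAM1 turning positive with TMM scaling (0.02). With a trend with gene span removed, both ratios of Ocln were above 0 and both of Cldn5 below 0. The antibody ratios of Ocln were 0.15 (-0.09 to 0.39) and 0.15 (-0.08 to 0.39) in arterial-like cells. In capillary-like cells they were -0.26 (-0.39 to -0.12) and -0.29 (-0.42 to -0.15).

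**Figure D1:**
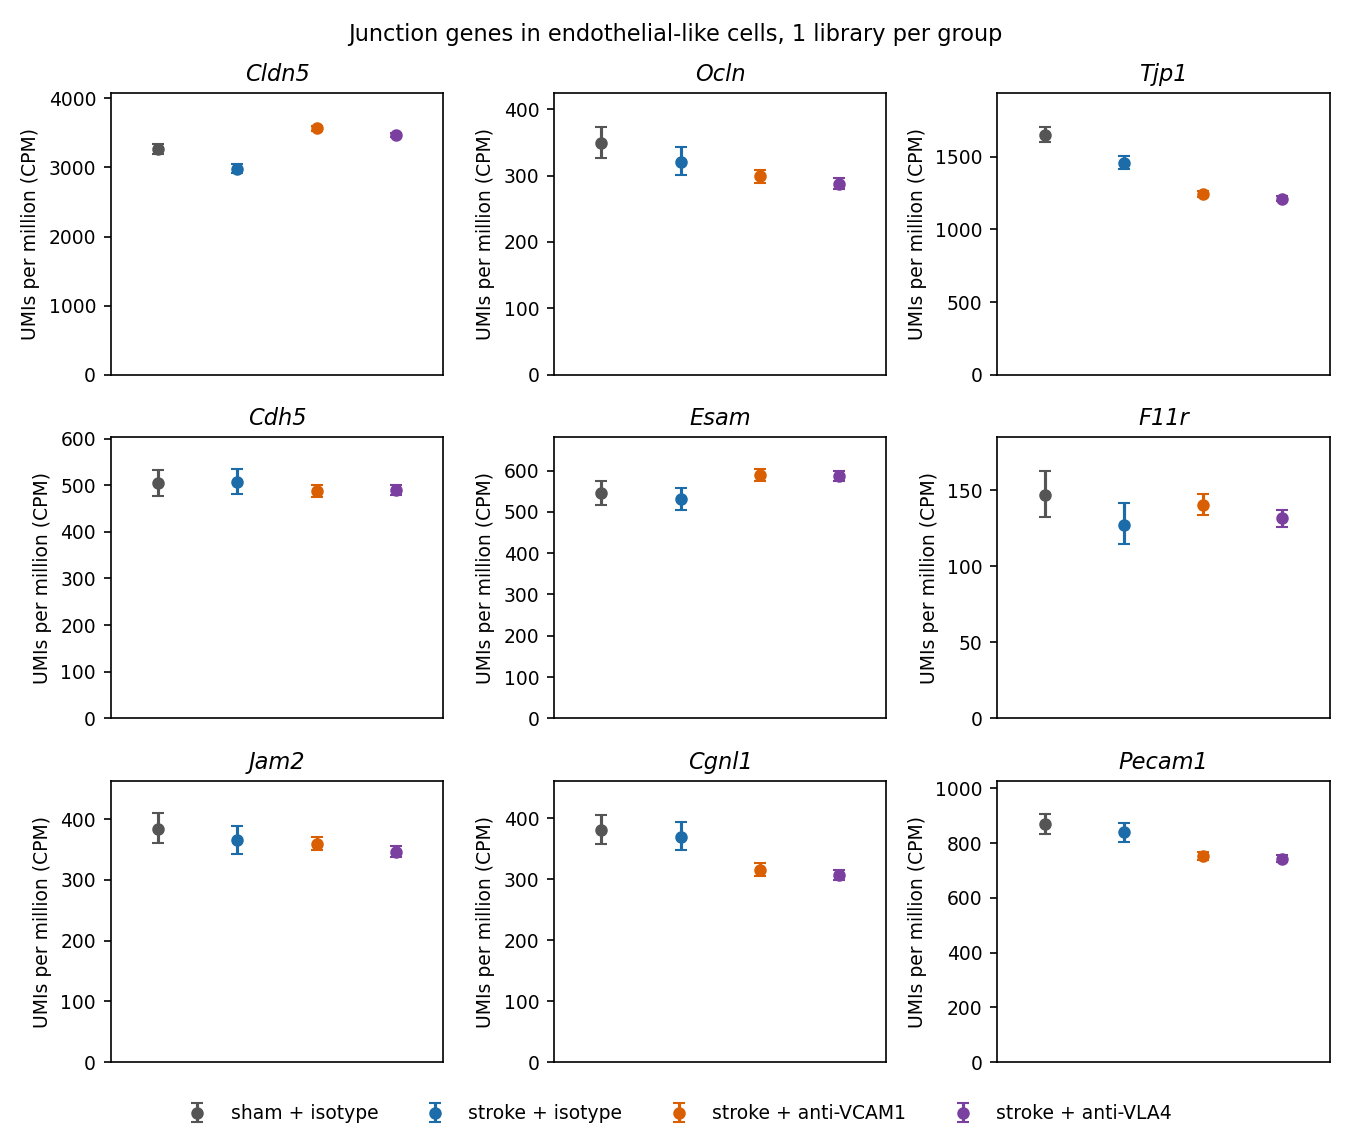
CPM of the 9 junction genes in endothelial-like cells, 1 point per library with its 95% counting interval and a y axis from 0 in each panel. Cldn5 is lowest in stroke with isotype (2984 CPM), while Tjp1 goes from 1653 CPM in sham to 1211 CPM with anti-VLA4.

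The junctional adhesion molecules are immunoglobulin-fold proteins of the same cleft. F11r encodes JAM-A (27.1 kb on chromosome 1, 171437535 to 171464603) and stood at 147, 127, 141 and 131 CPM, from 366, 352, 1585 and 2068 UMIs. Its stroke ratio of -0.20 (-0.42 to 0.01) and its antibody ratios of 0.14 (-0.03 to 0.31) and 0.04 (-0.12 to 0.21) all had intervals that held 0. Jam2 encodes JAM-B (51.8 kb on chromosome 16, 84774123 to 84825928) and stood at 384, 365, 359 and 347 CPM. Its ratios were -0.07 (-0.20 to 0.06), -0.02 (-0.12 to 0.08) and -0.08 (-0.17 to 0.02), and both antibody ratios were above 0 with TMM scaling (0.10 and 0.06). Esam, an endothelial adhesion molecule of the same superfamily (10.2 kb on chromosome 9, 37528078 to 37538319), stood at 545, 531, 588 and 586 CPM. Over all endothelial-like cells it resembled Cldn5 in the antibody comparisons, with ratios of 0.15 (0.07 to 0.23) and 0.14 (0.06 to 0.22). In capillary-like subclusters 1 and 2 together, described below, these ratios of Esam were 0.04 (-0.08 to 0.17) and 0.07 (-0.05 to 0.19). Within each single subcluster with enough cells for a ratio, the antibody intervals of Esam held 0, unlike some of those of Cldn5. Unlike the Cldn5 ratio, the stroke ratio of Esam over all endothelial-like cells, -0.04 (-0.15 to 0.07), had an interval that held 0.

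Tjp1 and Cgnl1 encode plaque proteins under the membrane, ZO-1 and paracingulin. Tjp1 is the longest of the 9 genes (232 kb on chromosome 7, 65296165 to 65527781). It stood at 1653, 1458, 1243 and 1211 CPM. It was therefore highest in sham, lower in stroke with isotype and lower again with either antibody, and only the intervals of the 2 antibody libraries overlapped. The stroke ratio was -0.18 (-0.24 to -0.12), and the antibody ratios were -0.23 (-0.28 to -0.18) and -0.27 (-0.32 to -0.22). Cgnl1 (145 kb on chromosome 9, 71626509 to 71771602) stood at 381, 369.7, 316 and 307 CPM. Its stroke ratio was -0.04 (-0.17 to 0.09), and its antibody ratios were -0.23 (-0.33 to -0.13) and -0.27 (-0.37 to -0.17). Both plaque genes were thus lower in the antibody libraries than in stroke with isotype on the CPM scale, and both lay above 0 there once a trend with gene span was removed.

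Cdh5 encodes VE-cadherin, the cadherin of the endothelial adherens junction (42.9 kb on chromosome 8, 104101625 to 104144511). It stood at 504, 508, 488 and 489 CPM, and its 4 counting intervals overlapped. The ratios were 0.01 (-0.10 to 0.12), -0.06 (-0.14 to 0.03) and -0.06 (-0.14 to 0.03), the antibody ratios being above 0 with TMM scaling (0.07 and 0.09). Over 18 alternative ways of processing, the stroke ratio of Cdh5 ranged from -0.01 to 0.27. Pecam1 (96.4 kb on chromosome 11, 106654217 to 106750628) stood at 870.1, 839, 753 and 743 CPM. Against a stroke ratio of -0.05 (-0.14 to 0.03), its antibody ratios were -0.16 (-0.22 to -0.09) and -0.18 (-0.24 to -0.11). Over all endothelial-like cells its 2 antibody libraries thus lay below both isotype libraries without overlap of the intervals. Both antibody ratios of Pecam1 lay above 0 once a trend with gene span was removed (0.07 and 0.08). They were -0.02 (-0.12 to 0.08) and 0.00 (-0.09 to 0.10) in capillary-like subclusters 1 and 2 together, described below. In arterial-like subcluster 5 they were -0.30 (-0.45 to -0.16) and -0.36 (-0.50 to -0.22).

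The promoters of Cldn5 and Tjp1 are shown because these genes had the highest, and the lowest or next to lowest, ratio of the 9 in both antibody comparisons. The sequences are RefSeq promoters of build GRCm38.p6, from 250 bases before to 50 after a transcript start, read 5′ to 3′ along the gene's strand. Cldn5 starts on the plus strand of chromosome 16 (chr16:18776597-18776896), and Tjp1 on the minus strand of chromosome 7 (chr7:65371195-65371494). The Tjp1 window belongs to a start inside the span annotated for the gene. Capitals mark matches, on either strand, to GGGCGG (the core of a GC box) or CCAAT (the CCAAT box).
Cldn5: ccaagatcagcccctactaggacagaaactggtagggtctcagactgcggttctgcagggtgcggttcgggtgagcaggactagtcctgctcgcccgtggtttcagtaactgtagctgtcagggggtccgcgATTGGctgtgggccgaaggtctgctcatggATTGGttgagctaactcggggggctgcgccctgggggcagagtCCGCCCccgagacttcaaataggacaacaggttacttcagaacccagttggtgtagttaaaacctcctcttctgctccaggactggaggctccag
Tjp1: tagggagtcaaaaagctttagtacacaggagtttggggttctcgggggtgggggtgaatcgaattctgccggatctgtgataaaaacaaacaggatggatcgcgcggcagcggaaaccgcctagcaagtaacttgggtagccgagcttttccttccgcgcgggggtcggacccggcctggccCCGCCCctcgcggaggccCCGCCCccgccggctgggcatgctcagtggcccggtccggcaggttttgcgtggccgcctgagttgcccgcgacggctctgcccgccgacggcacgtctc
The Cldn5 window held 12 CpG dinucleotides, 1 GGGCGG match and 2 CCAAT matches, and the Tjp1 window held 31 CpG dinucleotides and 2 GGGCGG matches. GGGCGG was found in 35.9% and CCAAT in 37.4% of 32534 promoters of 300 bases, whose median CpG count was 7. Of the other 2 motifs searched on both strands, CCGGAA (15% of promoters) and ACAAT (30.8% of promoters), neither was found in these 2 windows. Promoter entries were matched for 5 of the 9 genes, which also included Cgnl1, F11r and Ocln. Cdh5, Esam, Jam2 and Pecam1 were not matched.

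A difference was counted from a log2 ratio of 0.32 up or down, called the fold line here. None of the 9 genes reached it over all endothelial-like cells in any comparison. For stroke, 0 of 9 were that much higher and 0 of 9 that much lower, where the share of all 4796 tested genes (at least 200 UMIs over both libraries) was 5.98% higher and 8.82% lower. For anti-VCAM1 it was also 0 and 0 of 9, against 11.5% higher and 19.8% lower of 7618 genes. For anti-VLA4 it was 0 and 0 of 9, against 12.5% higher and 21.8% lower of 8331 genes. The median log2 ratio of the 9 was -0.07 for the stroke comparison and -0.06 and -0.08 for the antibodies, beside -0.03, -0.04 and -0.05 over all tested genes. The split of all genes depended on scaling. With TMM factors, 23.3% of genes were higher and 9.85% lower for anti-VCAM1, and 25.2% and 11.4% for anti-VLA4. TMM moved the median of all genes to 0.08 and 0.09, and the 9 genes moved with it, to medians of 0.07 and 0.06. TMM scales each library by a single factor, so it cannot alter the order of the genes within a comparison. With it, Cldn5 was past the fold line (0.38 and 0.36) and Tjp1 was at -0.11 and -0.13.

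**Figure D2:**
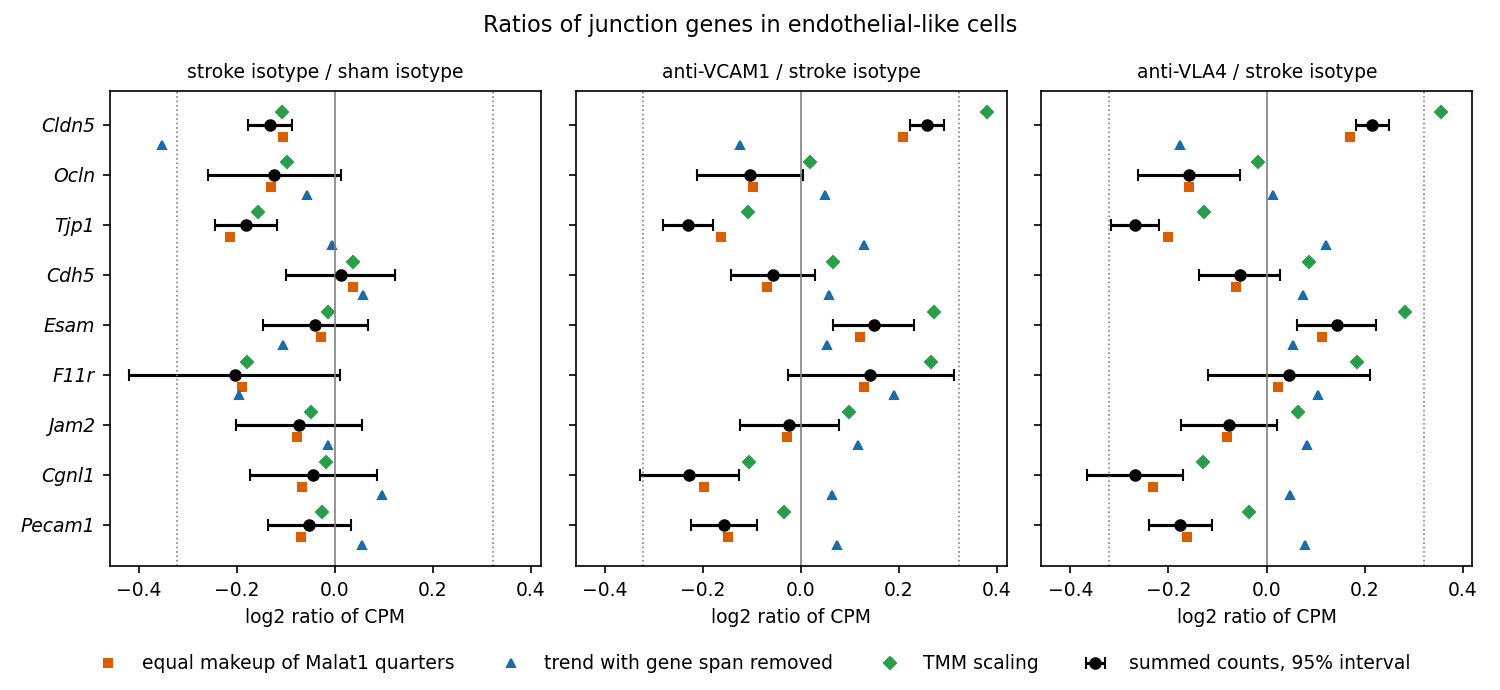
Log2 ratio of CPM of each gene in endothelial-like cells for the 3 comparisons, with black points for summed counts and their 95% counting intervals, and coloured symbols for 3 other ways of computing the ratio. Dotted lines mark the fold line at 0.32 up and down, which no black point passes. With the span trend removed Cldn5 moves from 0.26 to -0.12 for anti-VCAM1 and Tjp1 from -0.23 to 0.13.

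In the antibody comparisons the 9 genes ranked nearly by the length of the gene. From the highest ratio down, the order for anti-VCAM1 was Cldn5, Esam, F11r, Jam2, Cdh5, Ocln, Pecam1, Cgnl1 and Tjp1, and only Jam2 and Cdh5 (51.8 and 42.9 kb) departed from the order of span. For anti-VLA4 only Tjp1 and Cgnl1, which had equal ratios to 2 decimals, departed from it. The medians of all tested genes in classes of span showed the same gradient. For anti-VCAM1 the median ratio was 0.23 for 1615 genes under 10 kb, 0.06 from 10 to 30 kb, -0.16 from 30 to 100 kb and -0.36 for 1183 genes of 100 kb or more. For anti-VLA4 these medians were 0.22, 0.05, -0.17 and -0.39. Against its own class, Cldn5 lay close to the median of short genes in both comparisons, while Tjp1 and Cgnl1 lay above the median of long genes. When a smooth trend with span was removed, Cldn5 had ratios of -0.12 and -0.18 and Tjp1 of 0.13 and 0.12, so both changed sign. For Cldn5, the shortest of the 9 genes at 1.416 kb, the fitted trend thus lay above the median of its class. Its change of sign therefore rests on the fitted curve. The stroke comparison had a shallower gradient, from 0.14 under 10 kb to -0.15 at 100 kb or more, and Cldn5 lay below the median of its class there. With the trend removed its stroke ratio was -0.35, past the fold line, and that of Tjp1 was -0.00 to 2 decimals. Gene span is a property of the annotation (GENCODE M21), and what makes the ratios follow it was not tested.

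**Figure D3:**
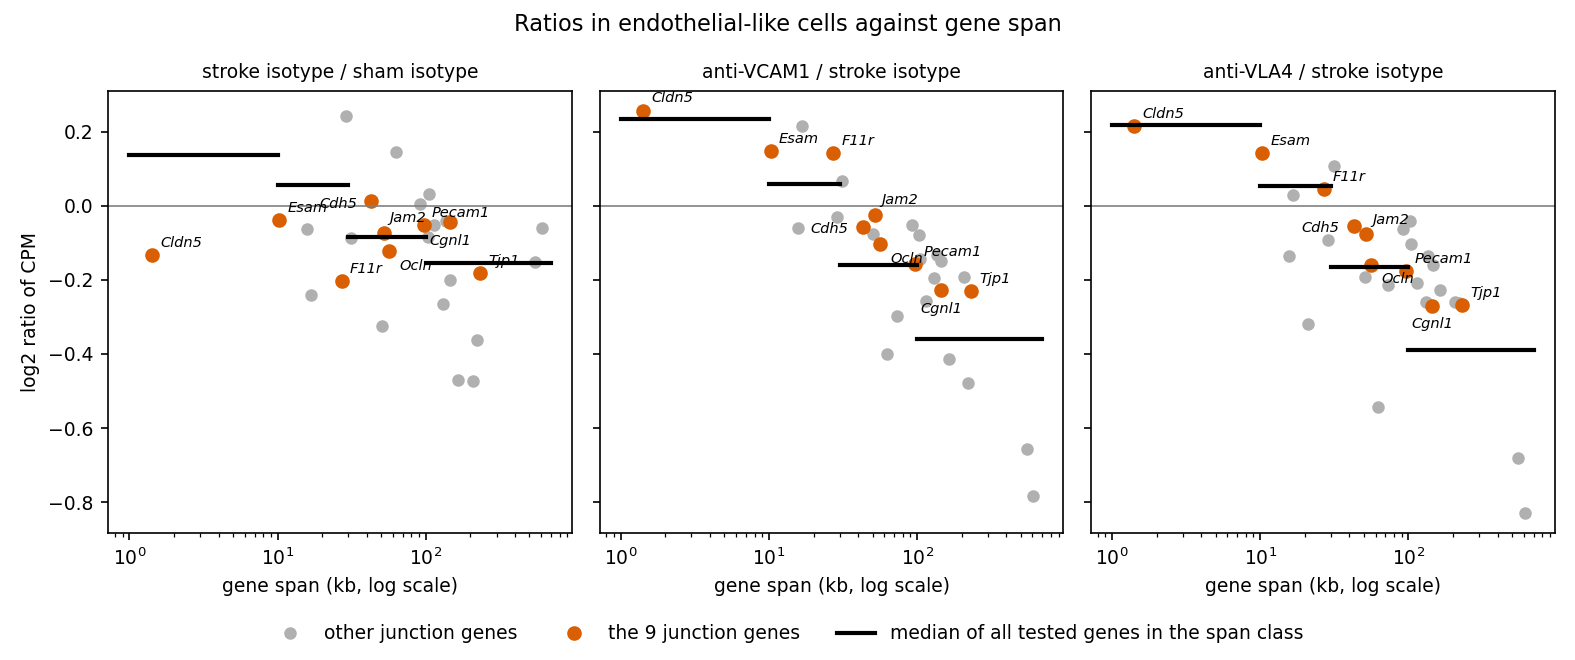
Log2 ratio of CPM in endothelial-like cells against gene span on a log scale, with the 9 genes labelled, the other junction genes in grey and black bars for the median of all tested genes in 4 classes of span. In both antibody panels the points go from Cldn5 at the upper left to Tjp1 and Cgnl1 at the lower right, as do the bars.

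Malat1 content varied with the same genes. Endothelial-like cells of all libraries were split into 4 equal bins by the share of Malat1 among their UMIs, with edges at 0.565%, 1.70% and 3.13%. The lowest bin held 11.7%, 15.5%, 26.5% and 28.2% of the endothelial-like cells of the 4 libraries. From the lowest to the highest bin, over all libraries, Cldn5 went from 4254 to 2790.04 CPM and Esam from 702 to 489 CPM. Tjp1 went the other way, from 784 to 1572 CPM. Cgnl1, from 240.2 to 343 CPM, and Pecam1, from 648 to 788 CPM, also rose over all libraries and in each stroke library, but not in sham. In sham Cgnl1 went from 390 to 317 CPM and Pecam1 from 983 (860 to 1118) to 735 (667 to 807) CPM. Jam2, at 345 and 356 CPM, and Cdh5, at 454 and 484 CPM, differed least between these bins. Within each bin, Cldn5 stayed higher in the antibody libraries than in stroke with isotype, by 0.21, 0.15, 0.23 and 0.25 where anti-VCAM1 was given and by 0.17, 0.13, 0.24 and 0.14 where anti-VLA4 was. The ratios of Tjp1 were -0.19, -0.24, -0.16 and -0.09 where anti-VCAM1 was given and -0.16, -0.35, -0.17 and -0.12 where anti-VLA4 was, all below 0, although the interval held 0 in the highest bin for anti-VCAM1 and in the lowest for anti-VLA4. Giving each library the same makeup of bins left Cldn5 at 0.21 and 0.17 and Tjp1 at -0.16 and -0.20. The split by Malat1 was made after seeing the data.

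**Figure D4:**
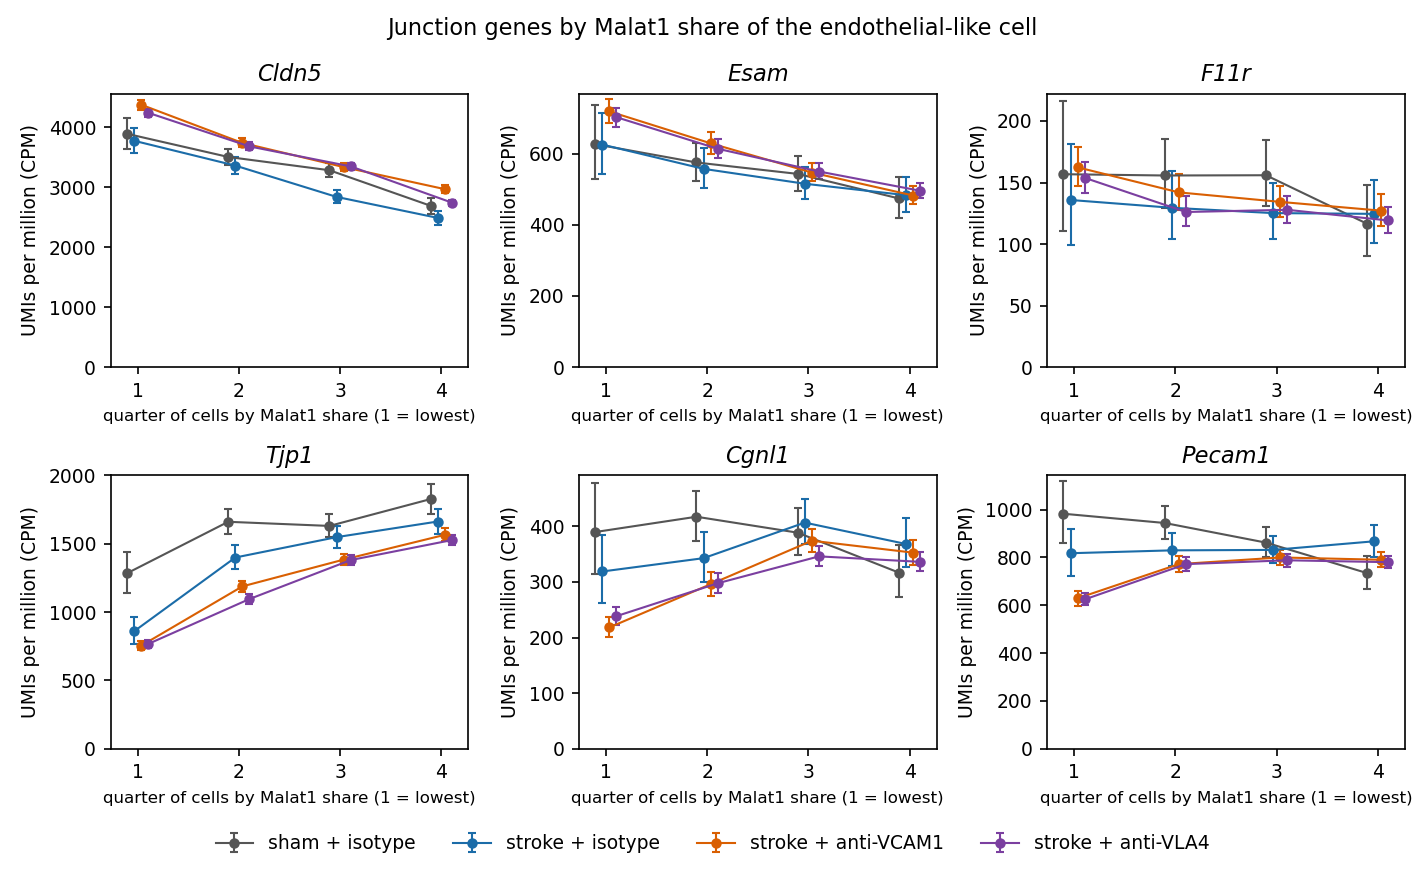
CPM of 6 junction genes in 4 bins of endothelial-like cells, ordered by Malat1 share (1 is the lowest), 1 line per library with 95% counting intervals. Cldn5 and Esam decline and Tjp1 climbs from bin 1 to bin 4, and for Cldn5 both antibody libraries lie above stroke with isotype in each bin.

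Between sham and stroke with isotype, Tjp1 differed most in the lowest of the 4 Malat1 bins. Tjp1 stood at 1284 CPM in sham and 859 CPM in stroke there, a ratio of -0.58 (-0.82 to -0.34), from 62 and 96 cells. In the other 3 bins the stroke ratio of Tjp1 was -0.25, -0.07 and -0.14. Pecam1 had a stroke ratio of -0.27 (-0.52 to -0.01) in the lowest bin and 0.24 (0.06 to 0.42) in the highest. Whether these bins differ from each other beyond counting error was not tested.

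Endothelial-like cells were divided into arterial-like, capillary-like and venous-like cells on other marker genes, with the 9 junction genes left out of the clustering. There were 118, 138, 571 and 811 arterial-like, 296, 351, 1325 and 1680 capillary-like, and 43, 36, 31 and 49 venous-like cells, and a subcluster of 922 cells stayed unnamed. Tjp1 differed most plainly by subtype. It stood at 1396, 1259, 1082 and 1021 CPM in arterial-like cells and at 1766, 1538, 1303 and 1290.4 CPM in capillary-like cells. In venous-like cells it stood at 2051, 1979.8, 1910.5 and 1999 CPM. With each subtype taken as a whole, the order venous-like, capillary-like, arterial-like held in all 4 libraries without overlap of counting intervals. The capillary-like subclusters differed widely among themselves, as given below. In venous-like cells the 4 libraries overlapped for Tjp1, whereas in arterial-like and capillary-like cells, each taken as a whole, both antibody libraries lay below both isotype libraries. Ocln was higher in capillary-like cells (389.7, 367, 307 and 301 CPM) than in arterial-like cells (305, 238, 264 and 264 CPM) in all 4 libraries, also without overlap. F11r was higher in arterial-like cells (162, 133, 156 and 151 CPM) than in capillary-like cells (146, 115, 133 and 128 CPM), and the intervals were apart only in the 2 antibody libraries. Cldn5 differed little by subtype, at 3248, 2822, 3398 and 3406 CPM in arterial-like, 3182, 2955, 3592 and 3426 CPM in capillary-like, and 3213, 2719, 3485 and 3312 CPM in venous-like cells. With each subtype taken as a whole, stroke with isotype was the lowest library for Cldn5.

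**Figure D5:**
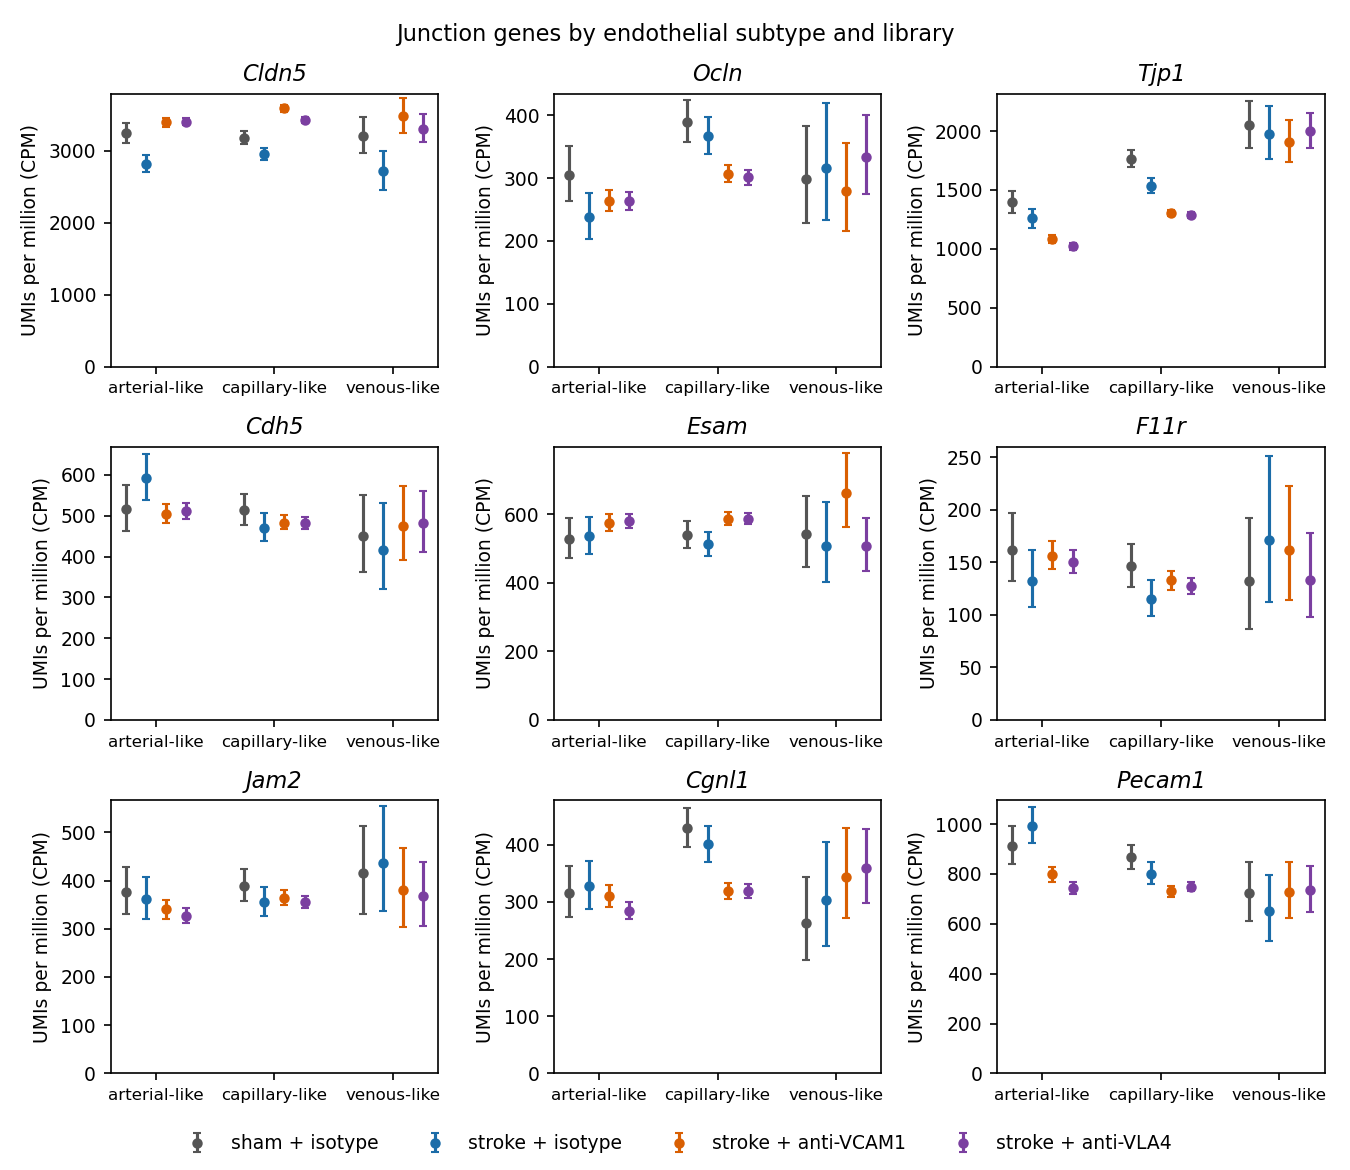
CPM of the 9 genes in arterial-like, capillary-like and venous-like endothelial cells, 4 libraries side by side with 95% counting intervals and y axes from 0. With each subtype taken as a whole, Tjp1 climbs from arterial-like to venous-like cells in each library, and Cldn5 is lowest in stroke with isotype.

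The arterial-like class was made up differently in the libraries. Subcluster 3 gave 29, 46, 344 and 512 of its cells and subcluster 5 gave 80, 89, 210 and 272, so the larger of these was subcluster 5 in the isotype libraries and subcluster 3 in the antibody libraries. Within subcluster 3, Cldn5 stood at 3872, 3945, 3797 and 3826 CPM, with stroke with isotype the highest and antibody ratios of -0.06 (-0.16 to 0.05) and -0.04 (-0.15 to 0.06). Within subcluster 5 it stood at 3066, 2449, 2966 and 2829.5 CPM, with stroke with isotype the lowest and antibody ratios of 0.28 (0.19 to 0.37) and 0.21 (0.12 to 0.30). The antibody ratios of Tjp1, -0.22 and -0.30 in arterial-like cells as a whole, were -0.04 (-0.26 to 0.20) and -0.07 (-0.29 to 0.16) in subcluster 3 and -0.08 (-0.20 to 0.04) and -0.17 (-0.29 to -0.05) in subcluster 5. The values of arterial-like cells as a whole thus hold this difference in makeup as well as the differences within subclusters.

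A few genes passed the fold line within a subtype. In arterial-like cells Ocln did so for stroke, at -0.36 (-0.66 to -0.05) from 190 and 174 UMIs, which was 1 of 8 tested members where 9.63% of genes were as much lower, and which fell just short of the line with the span trend removed. Pecam1 did so in arterial-like cells for anti-VLA4, at -0.42 (-0.53 to -0.30), or 1 of 9 where 21% of genes were as much lower, and the ratio was -0.20 with the span trend removed. The Pecam1 levels of arterial-like cells as a whole were 914, 994, 798 and 743 CPM, so stroke with isotype was the highest library there. The stroke ratio of Pecam1 was -0.32 (-0.69 to 0.05) in subcluster 3 and 0.31 (0.13 to 0.50) in subcluster 5. For anti-VLA4 it had -0.18 (-0.42 to 0.07) in subcluster 3 and -0.36 (-0.50 to -0.22) in subcluster 5. In capillary-like cells F11r was lower for stroke, at -0.34 (-0.64 to -0.05) from 207 and 184 UMIs, 1 of 9 where 12.4% of genes were as much lower, and the ratio was 0.06 when cells were named 1 by 1 on their markers. Cgnl1 in capillary-like cells stood at 429, 401, 319.6 and 319 CPM, with ratios of -0.33 for both antibodies, each 1 of 9 where 20.7% (anti-VCAM1) and 22% (anti-VLA4) of genes were as much lower, and with the span trend removed these ratios were -0.04 and -0.02. In venous-like cells Cldn5 (0.36, with an interval of 0.18 to 0.53) and Esam (0.38, with an interval of -0.02 to 0.80) were higher with anti-VCAM1, 2 of 4 tested members where 33.1% of genes were as much higher. With the span trend removed neither passed, Cldn5 being at -0.08 and Esam at 0.19. Of the members tested in the remaining subtype comparisons, 0 passed. The background there was 5.9% higher for stroke in arterial-like cells, 14.4% higher and 17.5% lower for anti-VCAM1, and 16.5% higher for anti-VLA4. In capillary-like cells it was 9.25% higher for stroke, 16.3% higher for anti-VCAM1 and 15.9% higher for anti-VLA4. In venous-like cells it was 11.1% higher and 11.9% lower for stroke (0 of 3 members), 19.5% lower for anti-VCAM1 (0 of 4), and 27.1% higher and 13.9% lower for anti-VLA4 (0 of 5). Counts of 1 or 2 genes cannot be set apart from these background shares. Cdh5 in arterial-like cells as a whole stood at 516, 593, 505 and 512 CPM. Stroke with isotype was thus the highest library there, as for Pecam1. The antibody ratios of Cdh5 in that class were -0.23 (-0.39 to -0.08) and -0.21 (-0.36 to -0.06). They were -0.14 (-0.43 to 0.17) and -0.19 (-0.48 to 0.11) in subcluster 3. In subcluster 5 they were -0.21 (-0.39 to -0.01) and -0.12 (-0.30 to 0.07).

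Capillary-like cells were not made up alike. The low-Malat1 subcluster gave 12 of 296 and 45 of 351 capillary-like cells in the isotype libraries and 500 of 1325 and 665 of 1680 in the antibody libraries. In that subcluster, over all libraries, Cldn5 stood at 4402 CPM and Tjp1 at 724 CPM, against 2698 and 1870.3 CPM in the subcluster that held most capillary-like cells in the isotype libraries (195 and 190 cells). In the antibody libraries the low-Malat1 subcluster was the largest of the class. Within the 2 capillary-like subclusters that all libraries filled (283, 283, 769 and 935 cells), Cldn5 stood at 3134, 2779.6, 3127 and 2982 CPM, and Tjp1 at 1787, 1658, 1569.7 and 1569 CPM. Pooled, these subclusters gave antibody ratios of 0.17 and 0.10 for Cldn5, -0.08 and -0.08 for Tjp1, and -0.18 and -0.22 for Cgnl1, but their mix differed too, with 195 and 88 cells in sham and 438 and 497 with anti-VLA4. Taken singly they gave other values. In the first of them (subcluster 1) Cldn5 had 0.12 (0.05 to 0.19) and 0.14 (0.07 to 0.21), and Tjp1 had -0.05 (-0.13 to 0.03) and -0.01 (-0.09 to 0.07). In the other (subcluster 2) Cldn5 had 0.06 (-0.02 to 0.14) and -0.09 (-0.16 to -0.01), and Tjp1 lay above 0, at 0.17 (0.03 to 0.31) and 0.14 (0.00 to 0.27). All 4 antibody ratios of Cgnl1 within subclusters 1 and 2 had intervals that held 0. Within the low-Malat1 subcluster itself, Tjp1 had ratios of 0.03 (-0.26 to 0.33) and -0.01 (-0.30 to 0.28).

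The share of endothelial-like cells with a UMI was taken after thinning each cell to 1000 UMIs, which left out 5, 19, 31 and 34 cells. Cldn5 was found in 90.6%, 90.8%, 94.0% and 92.8% of cells, and unthinned in 98.5%, 97.9%, 99.5% and 99.2%. Tjp1 was found in 74.4%, 69.3%, 65.2% and 64.5% of thinned cells, the same order of libraries as its CPM. Cdh5 was found in 33.1% (29.1% to 37.3%) of sham and 42.2% (38.2% to 46.3%) of stroke isotype cells, while its CPM hardly differed and its unthinned shares were 77.1% and 80.3%, so no order is read from it. F11r was found in 13.6%, 12.4%, 13.7% and 11.7% of thinned cells, the lowest of the 9. As background, Cldn5 was found in 0 of 483, 2 of 975, 15 of 1245 and 21 of 1673 thinned microglia-like cells, at a median of 8744, 7329, 6205 and 5991 UMIs. The 0 allows a share of up to 0.621% of cells with a UMI.

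Some of the 9 genes were also counted outside endothelial-like cells. F11r stood at 370.03, 311, 370.2 and 366 CPM in microglia-like cells, above its level in endothelial-like cells, which held 15.1%, 9.91%, 29.3% and 29.1% of its UMIs. Tjp1 stood at 283, 271, 268 and 287 CPM and Jam2 at 80.2, 66.4, 76.0 and 80.9 CPM in microglia-like cells. Pecam1, which leukocytes also express, stood at 26.0, 17.4, 21.4 and 23.2 CPM there and at 35.0, 48.0, 23.2 and 46.6 CPM in T-cell-like cells. Cdh5, Esam, Cgnl1 and Ocln were each under 3 CPM in microglia-like cells of every library. Cldn5 in pericyte-like cells stood at 279.8, 476, 2022 and 1798 CPM from 10, 13, 55 and 91 cells, and in border-macrophage-like cells at 0, 1.53, 31.9 and 406 CPM. Its levels outside endothelial-like cells were thus highest in the antibody libraries, which also held the most endothelial cells, and what part free RNA or mixed droplets have in this was not tested.

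The other junction genes were taken from a list of 35 counted genes, of which 18, 19 and 20 reached 200 UMIs in the 3 comparisons. For stroke 0 were past the fold line upward and 4 downward, for anti-VCAM1 0 higher and 5 lower, and for anti-VLA4 0 higher and 3 lower, against the shares of all genes given above. Their medians were -0.09, -0.15 and -0.20, and 4 of 18, 2 of 19 and 2 of 20 had a ratio above 0. Among tight junction plaque and polarity genes, Magi1, a scaffold with guanylate kinase-like and PDZ domains, stood at 203 CPM in stroke with isotype, 118 with anti-VCAM1 and 114 with anti-VLA4. Its ratios, -0.78 (-0.93 to -0.64) and -0.83 (-0.97 to -0.69), were the lowest among genes of the list that reached 200 UMIs, followed by Pard3, a polarity scaffold, at -0.66 (-0.77 to -0.54) and -0.68 (-0.79 to -0.57). These genes span 608 and 548 kb. For stroke the lowest of the 18 genes that reached 200 UMIs were Magi3 at -0.47 (-0.61 to -0.33) and Mpdz, another PDZ scaffold, at -0.47 (-0.84 to -0.10). The highest stroke ratios among the same 18 genes were those of Jup, which encodes plakoglobin, at 0.24 (0.01 to 0.48), and Ildr2 at 0.15 (-0.15 to 0.45). With the antibodies, Ctnnb1, which encodes the beta-catenin that binds VE-cadherin, had 0.07 (-0.02 to 0.15) and 0.11 (0.02 to 0.19), and Amotl2 0.21 (-0.02 to 0.45) and 0.03 (-0.20 to 0.26). Among the adherens junction genes, 9 of 13 were tested for each antibody, with medians of -0.14 and -0.16.

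Genes with a pattern like that of a member were sought by Pearson correlation of log2(CPM + 1) over 12 profiles, the 3 subtypes in the 4 libraries, among 3920 genes. The profiles share libraries and differ in depth, so the values only describe these data. Cldn5 was most like Snx3 (r = 0.90) and Alas1 (0.88), and Tjp1 most like Dnm3 (0.99) and Polk (0.98). Cdh5 and Pecam1 had the same nearest pair, Cyth3 (0.91 and 0.93) and Tgfbr2 (0.91 and 0.92). Esam was nearest to Sf3b6 (0.94) and Emc2 (0.93), Ocln to Igf1r (0.94) and Ccdc141 (0.91), and Jam2 to Glcci1 (0.96) and Kif13a (0.95). F11r was nearest to Golga4 (0.86) and Aqp11 (0.81), and Cgnl1 to Fzd6 (0.89) and Ikbkb (0.89). Against Malat1 over the same profiles, Tjp1 had 0.70, Jam2 0.55, F11r 0.17 and Ocln -0.04. Cgnl1 had -0.16, Pecam1 -0.20, Cdh5 -0.32, Esam -0.35 and Cldn5 -0.39.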

How the data were processed

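The deposited files hold UMI counts per gene and cell barcode from the authors' Cell Ranger runs (version 7.0.1 per the file headers, and 6.0.0 per the submitters' processing notes, which list builds mm10 and GRCh38). Each library pooled 4 to 5 mice. A barcode was kept from 500 UMIs and 200 genes up, with mitochondrial UMIs at 10% or less, and Scrublet doublets (0.721% to 1.96%) were removed. Cells were clustered with scanpy 1.11.5 (2000 variable genes, Leiden resolution 1) without 169 genes, among them the members and other junction genes. For a cluster to be called "like" a type, at least 3 of its markers had to count. A marker counted when found in at least 25% of cells, with a log2 fold of at least 1 (0.5 for subtypes) over other cells. Capillary-like subclusters were named by comparison with the arterial-like and venous-like subclusters. UMIs were summed per library and class, with exact Poisson intervals for levels and conditional binomial intervals for ratios at 95%. A difference was counted from a log2 ratio of 0.32, among genes with at least 200 UMIs in both libraries together. Every group had 1 library, so no test was made. Genes were matched by identifier to GENCODE M21 (99.8% of 32285). Named other genes are the 2 highest and 2 lowest of the junction list with at least 200 UMIs in each comparison, and the 2 most alike per member. The members and lists were chosen with earlier results of these data known, and naming rules were settled after clusters were seen. Alternatives included TMM factors from edgeR 4.0.16 on the same counts.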

Additional observations from a re-analysis of the deposited data

How the results depend on the processing

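No paired analysis was possible because each group had 1 library. All 16 alternatives chosen at the outset were run, and 2 more were added after seeing the data (equal makeup of Malat1 bins, and leaving out shared barcodes). Removing the trend with gene span moved the most single ratios (47 moved, 1 reversed, 44 not), before TMM (30 moved). The count of reversed ratios does not hold every change of sign. Over all endothelial-like cells, removing the span trend changed the sign of both antibody ratios of Cldn5, Ocln, Tjp1, Cdh5, Jam2, Cgnl1 and Pecam1. It also changed the sign of the stroke ratios of Cgnl1 and Pecam1. With TMM the median ratio of the 9 genes was 0.066 for anti-VCAM1 and 0.064 for anti-VLA4, with 1 gene (Cldn5) past the fold line in each, and the other junction genes had -0.027 for anti-VCAM1. With median-of-ratios factors these medians of the 9 were 0.034 and 0.025, and 1 gene (Cldn5) passed for anti-VCAM1. With the span trend removed they were 0.063 and 0.075, those of the other junction genes 0.061 and 0.056, and 1 gene (Cldn5) was past the line on the lower side for stroke. Thinning cells to 1000 UMIs gave the 9 a median of -0.15 for anti-VCAM1, and the mean of each cell's CPM put 1 gene (Cgnl1, -0.36) past the line for anti-VLA4. F11r in capillary-like cells for stroke was 0.056 with cells named singly by their markers, and Cldn5 in venous-like cells for anti-VCAM1 was -0.083 with the span trend removed. The causes were not tested. Shares of cells with a UMI moved at every other depth, as their construction makes them. Depth limits F11r and the venous-like values most, where many intervals hold 0. The venous-like class also depended on the clustering. At Leiden resolution 0.5 it had 47 cells (19, 12, 5 and 11), under the minimum of 20 per library, so it gave no ratio.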
